A study of Danio rerio with 14 samples.

Results

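Regions of the zebrafish genome that carried a peak of H3K27ac in all 4 IRF4-driven tumors and in exactly 1 of 3 normal thymus samples numbered 507. They were chosen by the peak calls themselves. The peak lists of the 7 samples were merged wherever peaks overlapped by 1 bp or more, which gave 98262 regions, and a region counted as called in a sample when any peak of that sample lay in it. The 507 regions were 0.516% of all regions and 4.59% of the 11056 regions called in all 4 tumors. Of these, 31 were called in thymus 2, 204 in thymus 3 and 272 in thymus 5, and each set is described below as held by that sample. Because the calls of all 7 lists made the choice, the counts and lengths below are descriptions and carry no test between samples or sets.

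The tumor fish carried the human gene IRF4, which encodes a lymphocyte transcription factor, together with the red reporter mCherry, both under the zebrafish lck promoter. The study reports that transgenes under this promoter were expressed in normal T cells and B cells. The normal thymus samples came from 3-month-old fish with lck:mCherry and no IRF4, so tumors and controls share the reporter and the promoter. In both tissues mCherry-positive cells were sorted before ChIP, which limits both to cells with an active lck promoter. An age for the tumor fish was not given in the labels used here. The tumors were taken once the phenotype had developed. The thymus samples are called pooled in some places of the study and not in others, and the number of fish behind each one is not settled by the sources.

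H3K27ac, the acetylation of lysine 27 on histone H3, marks promoters and enhancers that are in use. In T-lineage cells it lies over the genes of the T cell receptor machinery and over the transcription factors that set T cell identity, and long stretches of it, called super-enhancers, often sit near such genes. A region marked in every tumor and in a single thymus sample lies between those that both tissues carry in every sample and those that the tumors alone carry. A peak call reports whether the mark passed a threshold in a bulk sample. Fewer cells with the mark and less mark per cell cannot be told apart in such data.

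Each list came from 1 library. The tumor lists held 19809 to 32781 peaks and the thymus lists 31647 to 40335, with median widths of 329 to 445 bp and 178 to 217 bp. The narrowest peak measured 72 to 128 bp in the tumor lists and 50 to 54 bp in the thymus lists, so a thymus list could call a region with a shorter peak than a tumor list could. Peak names in thymus 2 and thymus 5 contain the word batch2, which the other lists lack, and what it stands for is not given. Within the lists without that word only thymus 3 stands beside the tumors, so for thymus 2 and thymus 5 tissue and batch word cannot be told apart. The T-lineage label was checked at stitched peaks that the study names in tumor 1. At lck, bcl11ba and runx3, genes of the T lineage, and at gata3, peaks were called in all 7 lists, where a call anywhere in the stitched peak counted. Single regions called in all 7 lists were 1 of 1 at lck, 1 of 6 at bcl11ba and 2 of 22 at runx3. At the gata3 peaks they were 2 of 33 and 2 of 7. A call anywhere in a stretch of many regions was likely beforehand, so the check says little about the label. For ikzf1 and tcf7, also planned for this check, no value was obtained, and gata3 was not part of the plan. Marker genes of B cells, myeloid cells, red cells and thymic epithelium were not named in the rows of the study's tables used here, so those cells were not checked.

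The first question was which thymus sample held the regions. Thymus 5 held 53.6% of the 507, thymus 3 held 40.2% and thymus 2 held 6.11%. This order has to be read against how often each list called anything. Thymus 2 called 26.6% of all regions, thymus 3 called 35.9% and thymus 5 called 35.5%. Among the regions called in all 4 tumors the shares were 73.9% for thymus 2, 92.1% for thymus 3 and 93.2% for thymus 5. Thymus 2 thus missed more of what the tumors shared than the other samples did, and 1941 tumor-shared regions had peaks in thymus 3 and 5 with none in thymus 2. The opposite case, a tumor-shared region missed by thymus 3 alone, occurred 104 times, and one missed by thymus 5 alone 56 times. Among regions that the other 2 thymus samples lacked, the share held by the remaining sample was 31 of 496 for thymus 2 (6.25%, Wilson 95% interval 4.44 to 8.73), 204 of 669 for thymus 3 (30.5%, 27.1 to 34.1) and 272 of 737 for thymus 5 (36.9%, 33.5 to 40.4). These intervals cover counting error only, neighbouring regions are not independent, and the same calls chose the regions, so the shares are not a comparison of thymus samples. The total of 507 rests on which lists take part. Without tumor 4, the shortest list, it was 964, and with thymus 3 or thymus 5 left out, so that 1 of the remaining 2 had to hold the region, it was 2331 or 2351.

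**Figure D1:**
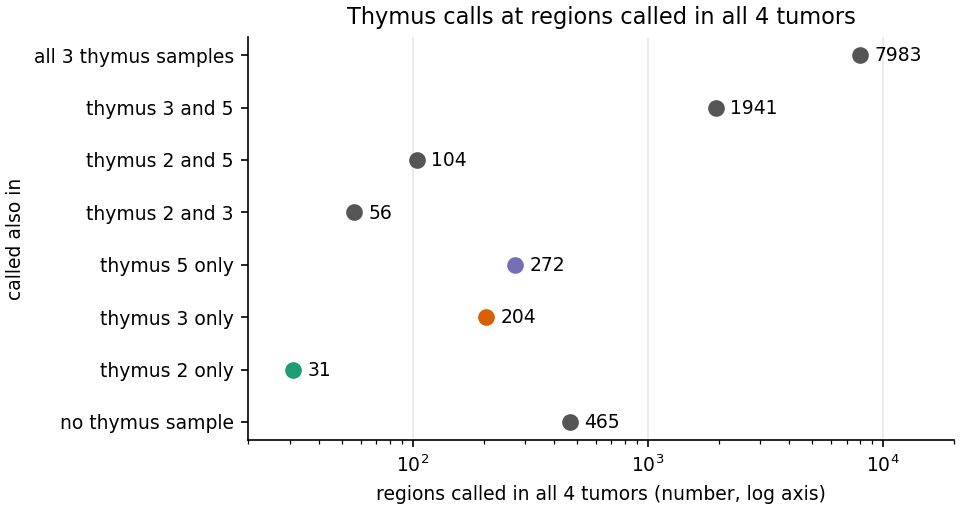
Number of regions called in all 4 tumors (x axis, log scale) by the thymus samples that also called them (y axis). Colours mark the sets held by a single thymus sample: 31 for thymus 2, 204 for thymus 3 and 272 for thymus 5, against 465 regions called in no thymus sample and 7983 called in all 3.

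In the median, the peaks of the holding thymus covered less than those of the tumors, but they were shorter than in all 4 tumors at only 250 of the 507 regions (49.3%). Set against the narrowest tumor of each region, the median ratio was 1.05 for thymus 3 and 1.08 for thymus 5, and 0.441 for thymus 2. At the 31 regions held by thymus 2 the median covered length, the number of bases under peaks of a list, was 506, 396, 581 and 325 bp in tumors 1, 2, 3 and 4 and 155 bp in thymus 2. At the 204 regions held by thymus 3 it was 416, 402.5, 534.5 and 266.5 bp in the tumors and 224 bp in thymus 3. At the 272 regions held by thymus 5 it was 489.5, 421.5, 566.5 and 328 bp in the tumors and 268.5 bp in thymus 5. In each set the thymus median lay under all 4 tumor medians, with tumor 3 the broadest and tumor 4 the narrowest tumor. The quartiles overlapped between tissues for thymus 3, from 129 to 356 bp against 166 to 494 bp in tumor 4, and for thymus 5, from 163 to 435 bp against 190 to 531 bp.

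**Figure D2:**
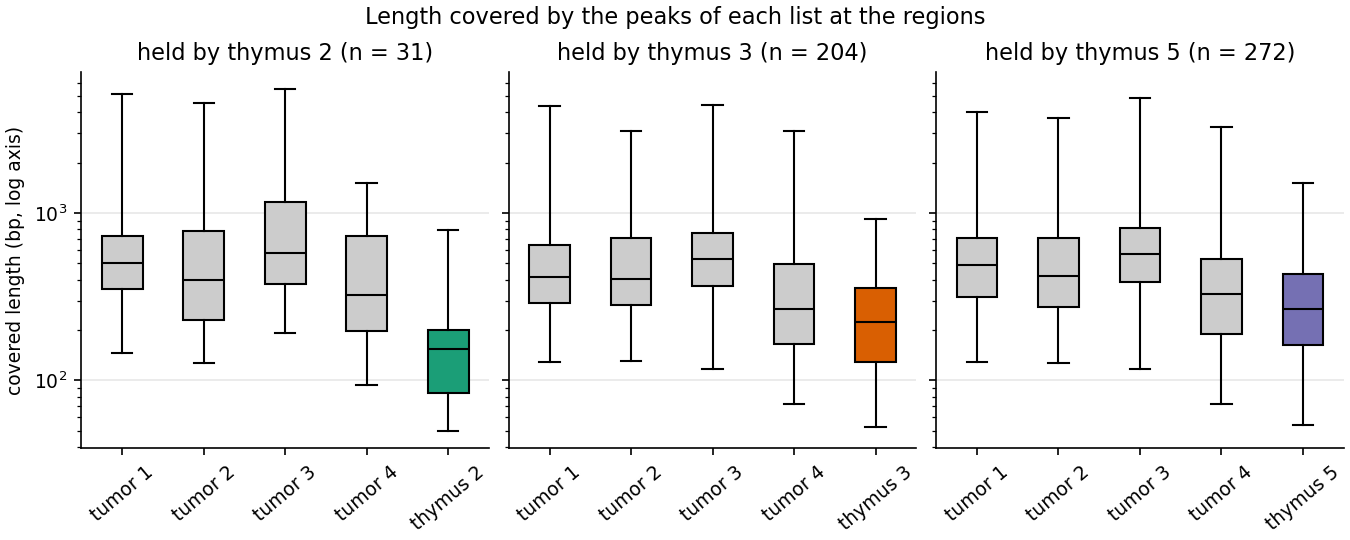
Length covered by the peaks of each list (y axis, bp, log scale) at the regions held by thymus 2 (n = 31), thymus 3 (n = 204) and thymus 5 (n = 272). Boxes give quartiles with the median as a line, whiskers reach the lowest and highest region, and the coloured box, with medians of 155, 224 and 268.5 bp, is the holding thymus sample.

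Divided region by region by the mean of the 4 tumors, the covered length in the holding thymus had a median of 0.206 for thymus 2 (quartiles 0.138 and 0.486), 0.499 for thymus 3 (0.281 and 0.752) and 0.561 for thymus 5 (0.307 and 0.93). Set against each tumor singly, the 4 medians ranged from 0.164 to 0.342 for thymus 2, from 0.411 to 0.789 for thymus 3 and from 0.505 to 0.798 for thymus 5, with the lowest value against tumor 3 and the highest against tumor 4 each time. The ratio was under 1 at 29 of 31, 171 of 204 and 213 of 272 regions. Thymus was below all 4 tumors at 25 of the 31 regions of thymus 2 (80.6%), 95 of the 204 of thymus 3 (46.6%) and 130 of the 272 of thymus 5 (47.8%). It was above all 4 tumors at 1, 16 and 28 regions. The ratio also moved with the lists that defined the regions. Without thymus 5 it was 0.827 for thymus 3 and 0.334 for thymus 2, and without thymus 3 it was 0.972 for thymus 5 and 0.288 for thymus 2.

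The same ratio at regions with more thymus calls was higher for every thymus sample. At regions called in 2 thymus samples the medians were 0.362 for thymus 2 (n = 160), 0.877 for thymus 3 (n = 1997) and 1.01 for thymus 5 (n = 2045). At the 7983 regions called in all 7 lists they were 0.681, 1.23 and 1.40. Thus thymus 3 and thymus 5 covered more than the tumor mean at the common regions and less at the regions they held alone. Measured as the rank of the widest peak within its own list, which sets aside the differing widths of the lists, thymus 3 and thymus 5 stood close to the tumors. The median difference in percentile, thymus minus the mean of the tumors, was -24.9 points for thymus 2, -2.54 for thymus 3 and -2.87 for thymus 5, against 4.35, 10.1 and 9.90 at the regions called in all 7 lists. The holding peak stood at a median percentile of 42.6, 49.6 and 54.0 of its list, near the middle, and of 82.4, 87.8 and 87.5 at the common regions.

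**Figure D3:**
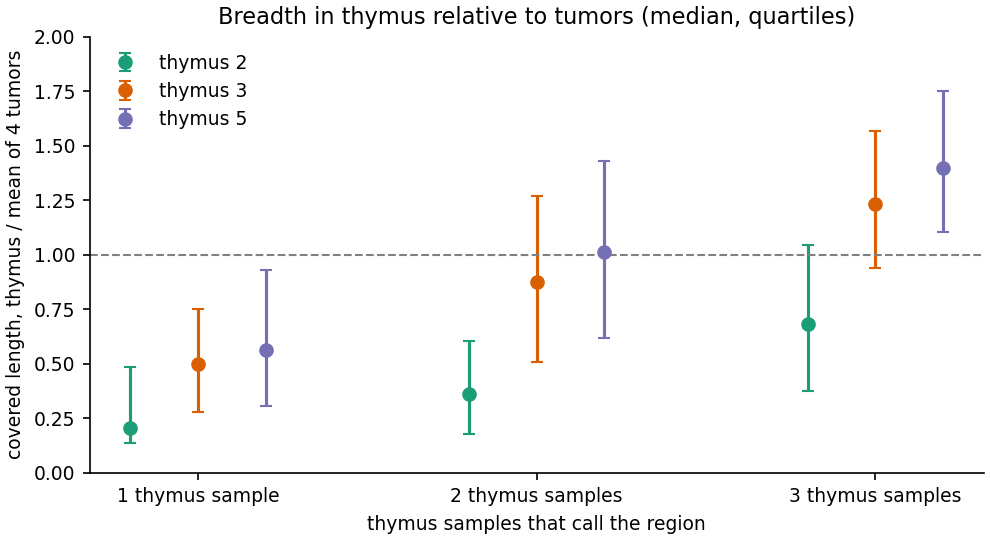
Covered length in a thymus sample divided by the mean of the 4 tumors (y axis) at regions called in all 4 tumors and in 1, 2 or 3 thymus samples (x axis). Points are medians over regions and bars are quartiles, and the dashed line marks equal length. At regions held by 1 thymus sample the medians were 0.206, 0.499 and 0.561, and at regions called in all 3 they were 0.681, 1.23 and 1.40.

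Some regions entered only just. The holding peak covered under 100 bp at 10 of the 31 regions of thymus 2 (32.3%), 28 of the 204 of thymus 3 (13.7%) and 31 of the 272 of thymus 5 (11.4%), and it had exactly the minimum width of its list at 4, 5 and 5 regions. Just outside the rule, 28 of the 465 regions without a thymus call had a thymus peak within 200 bp. On the other side, 199 of the 2101 regions called in 2 thymus samples had under 100 bp in the less covered one. A further 799 regions were called in 3 tumors and 1 thymus sample. Tumor 4, the shortest list, was the missing tumor at 34 of 64 such regions for thymus 2, 203 of 347 for thymus 3 and 204 of 388 for thymus 5.

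The position of the thymus peak inside the region was then compared with the tumors. A stretch under a peak in all 4 tumors at once existed in 474 of the 507 regions, and in the other 33 no base lay under peaks of all 4. Its median length over each set was 167, 163 and 201 bp for regions held by thymus 2, 3 and 5, against 456 bp at the regions called in all 7 lists. The thymus peak reached that stretch at 19 of 31 regions for thymus 2 (61.3%), 145 of 204 for thymus 3 (71.1%) and 197 of 272 for thymus 5 (72.4%). At the common regions the shares were 87.0%, 96.0% and 96.9%. At regions called in 2 thymus samples, thymus 2 reached it at 58.9% beside thymus 3 and 61.5% beside thymus 5, near its 61.3% above. Thymus 3 reached it there at 42 of 56 regions beside thymus 2 and at 86.6% beside thymus 5. For thymus 5 the shares were 83.7% beside thymus 2 and 87.8% beside thymus 3. The median stretch in these 3 classes was 177.5, 237.5 and 267 bp, so short stretches were not particular to regions with a single holder. Counted by region, the thymus call touched peaks of all 4 tumors at 377 of the 507, of 3 at 78, of 2 at 32 and of 1 at 20. It did not reach a stretch under all 4 tumors at 146 regions, including the 33 that had no such stretch. At the remaining 113 regions the thymus call lay beside a part that all 4 tumors shared.

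Whether the other thymus samples had a peak close by was measured as the distance to their nearest peak. For regions held by thymus 3, the nearest peak of thymus 5 lay within 1 kb at 49 of 204 (24.0%) and that of thymus 2 at 22 (10.8%). For regions held by thymus 5, the nearest peak of thymus 3 lay within 1 kb at 55 of 272 (20.2%) and that of thymus 2 at 25 (9.19%). For regions held by thymus 2 the counts were 5 and 6 of 31 for thymus 3 and thymus 5. The corresponding shares at the 465 regions with no thymus call were 6.24% for thymus 2, 11.2% for thymus 3 and 13.1% for thymus 5. At regions called in 2 thymus samples the share for the missing sample was 13.4% for thymus 2 (n = 1941), 29.8% for thymus 3 (n = 104) and 33.9% for thymus 5 (n = 56). Most regions with a single holder therefore had no second thymus peak within 1 kb. The nearest one was closer, in the median, than at regions without a thymus call. Such closeness was not particular to them, as the shares within 1 kb were higher still at regions called in 2 thymus samples. The medians were 6949.5 bp to thymus 5 and 13889 bp to thymus 2 around regions of thymus 3. Around regions of thymus 5 they were 5208.5 bp to thymus 3 and 10151 bp to thymus 2. Around regions without a call they were 10582, 11155 and 15048 bp to thymus 5, 3 and 2. Within 200 bp, regions of thymus 3 had a peak of thymus 5 at 25 and of thymus 2 at 7. For regions of thymus 5 the counts were 17 for thymus 3 and 5 for thymus 2. For regions of thymus 2 they were 0 for thymus 3 and 3 for thymus 5. At the 465 regions without a thymus call they were 7, 11 and 13 for thymus 2, 3 and 5.

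Peak scores were deposited for tumor 1 alone. At the 562 peaks of tumor 1 in these regions the fold enrichment over background had a median of 3.65 (quartiles 3.17 and 4.43) and the −log10 of the p-value a median of 6.96 (5.23 and 9.54). The sets differed little, with median fold enrichments of 3.46, 3.67 and 3.64 for regions held by thymus 2, 3 and 5. The regions lay between those with no thymus call (3.35) and those called in 2 thymus samples (4.09) or in all 7 lists (4.42). Peaks found in tumor 1 alone had a median of 2.88. No replicate check exists for these scores.

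By position, 392 of the 507 regions (77.3%) lay on chromosomes 1 to 25, 107 on alternate sequences of the assembly and 8 on unplaced ones. An alternate sequence is a second version of a stretch that the assembly also holds on a chromosome, so reads from such a place can align to either copy. Alternate sequences held 6 of 31 regions of thymus 2, 45 of 204 of thymus 3 and 56 of 272 of thymus 5, together 21.1% (Wilson 95% interval 17.8 to 24.9). The share was 16.1% among regions without a thymus call, 21.9% among those called in 2 thymus samples and 11.1% among those called in all 7 lists. Seen from the place, 6.99% of the 1530 tumor-shared regions on alternate sequences were held by 1 thymus sample (5.82 to 8.38), against 4.16% of the 9418 on chromosomes (3.78 to 4.58). The share of alternate sequences was thus higher than at the common regions and like that of the regions called in 2 thymus samples. These intervals cover counting error only. Regions are not independent, as the same place can count on a chromosome and on an alternate sequence, so the shares were not tested.

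Every chromosome carried such regions, from 7 on chromosome 17 to 26 on chromosome 2. As a share of the tumor-shared regions of the same chromosome they ranged from 1.94% on chromosome 20 to 6.69% on chromosome 24, with a median of 4.35%. The holders mixed on each chromosome. Chromosome 8 carried 16 regions of thymus 5 and 5 of thymus 3, and chromosome 16 carried 2 and 8. Thymus 2 had at most 3 on a chromosome, on chromosomes 6 and 19. None of the 11056 tumor-shared regions, and so none of the 507, touched the 38 peaks of tumor 2 wider than the widest of any other list (9026 bp).

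**Figure D4:**
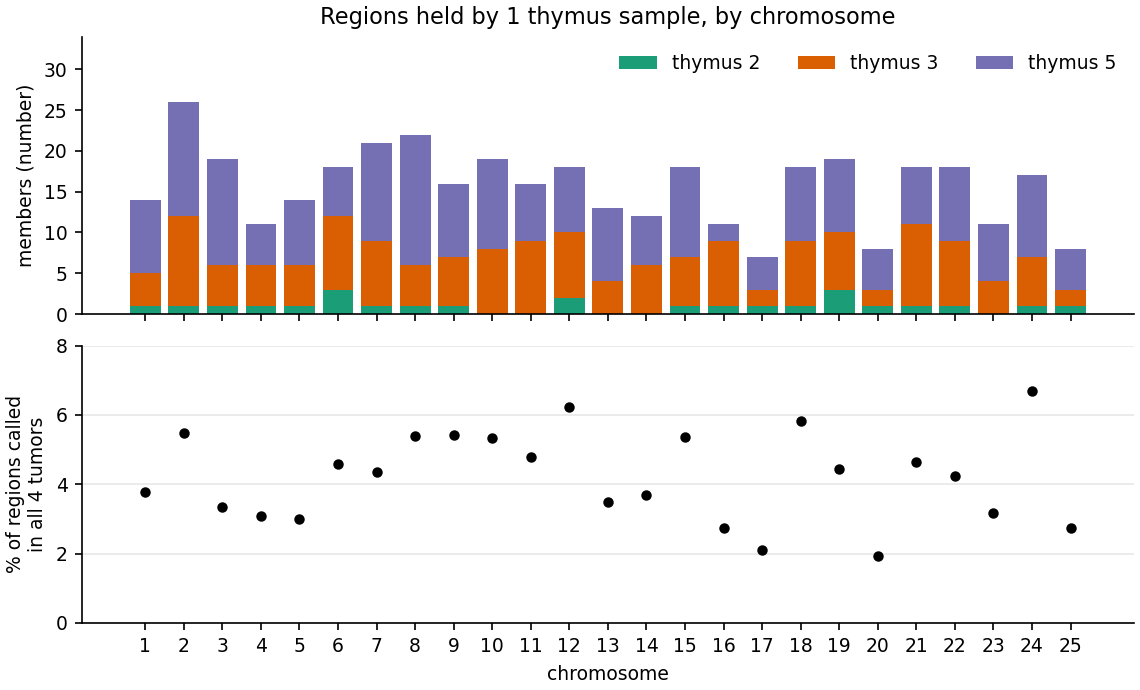
Regions held by a single thymus sample on chromosomes 1 to 25 (x axis), as numbers stacked by holding sample (upper panel) and as a percentage of the regions called in all 4 tumors on that chromosome (lower panel). Numbers ran from 7 on chromosome 17 to 26 on chromosome 2, and percentages from 1.94 on chromosome 20 to 6.69 on chromosome 24.

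The regions were mostly scattered. With 12.5 kb, the distance over which the study stitched peaks into super-enhancers, 47 of the 507 (9.27%) had another of the 507 within reach. They formed 19 pairs and 3 groups of 3. Of the 25 neighbouring pairs in these groups, 13 were held by the same thymus sample and 12 by different ones, 9 of them by thymus 3 and thymus 5. Thymus 5 held 53.6% of the 507 and thymus 3 held 40.2%. No expected number of pairs was worked out from these shares, so the mix is a description and was not tested. At regions without a thymus call, 10.8% had one of the 507 within 12.5 kb, and the share was 4.05% at regions called in 2 thymus samples and 2.05% at regions called in all 7 lists. Of the 465 regions without a thymus call, 90 (19.4%) had another of their own set within 12.5 kb, more than the 9.27% among the 507. Any other region called in all 4 tumors lay within 12.5 kb of 45.2% of the 507, against 51.2% of regions without a thymus call and 37.8% of those called in all 7 lists. A region called in all 7 lists was within reach of 27.8%, close to the 28.0% of regions without a thymus call and the 27.2% of those called in 2 thymus samples.

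Gene names were taken from the tables in which the study pairs sites and stitched peaks with genes, on GRCz11. Only part of these tables was used here, and 131 of the 507 regions had a name in them, so a region without a name is not a region without a gene. A name gives the gene that the study paired with the place and does not show that the region controls it. Intron, exon and UTR positions were not looked up for want of an annotation of this build.

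Genes of T cell identity came first. Of a list of 41 such genes, 16 were named anywhere in these rows and 4 were paired with 6 of the regions. That is 1.18% of the 507, or 4.58% of the 131 with a name. Among all 11056 tumor-shared regions it was 0.588%, or 3.85% of the 1688 with a name. Of named regions it was 2.11% without a thymus call and 4.58% with calls in 2 thymus samples. The transcription factor gata3, which T cells need for their development, was paired with regions of 2 thymus samples. At chr4:25067438-25070179, held by thymus 2, peaks covered 753, 184, 2714 and 270 bp in tumors 1, 2, 3 and 4 and 182 bp in thymus 2. The thymus peak was as short as that of tumor 2 and touched the peaks of 2 tumors. At chr4:24734472-24735680, held by thymus 5, the tumors covered 567, 586, 1160 and 1209 bp and thymus 5 covered 252 bp, below every tumor.

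Paired with runx1, a transcription factor of blood stem cells and T cells, were 2 regions 210 bp apart, both held by thymus 5. At chr1:1461075-1461774 the tumors covered 471, 248, 690 and 214 bp and thymus 5 139 bp. At chr1:1461985-1462662 they covered 678, 227, 332 and 187 bp and thymus 5 136 bp. Thymus 5 was below all tumors at both, though at the second its peak touched that of a single tumor. The region paired with il7r, the receptor chain for interleukin 7 on developing T cells, was chr21:22427909-22430740, held by thymus 3. There the tumors covered 1605, 2723, 539 and 1903 bp and thymus 3 551 bp, slightly more than tumor 3. The region paired with ets1, a transcription factor of lymphocytes, was chr18:48355417-48355967, held by thymus 5, with 551, 311, 285 and 329 bp in the tumors and 179 bp in thymus 5.

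Genes that the study names as tumor genes formed a second list. The study chose them on these samples, so their presence is not independent evidence. Of 16 genes, 13 were named anywhere in the rows, and 5 (mycb, fam49ba, gata3, midn and sla2) were paired with 7 of the regions, where mycb and fam49ba are a joint name for the same place. The 7 were 1.38% of the 507, or 5.34% of those with a name, against 0.47% of the tumor-shared regions, or 3.08% of those with a name. Names were more frequent at regions without a thymus call (61.3%) than at the 507 (25.8%) or at regions called in all 7 lists (12.1%), so shares of all regions follow how the tables were filled. The name mycb/fam49ba, of which mycb is a zebrafish counterpart of the oncogene MYC, stood at 3 regions. At chr2:32148291-32149536, held by thymus 3, the tumors covered 920, 1150, 983 and 1160 bp and thymus 3 only 57 bp. The 4 tumors were alike there, with a mean of 1053 ± 120 bp (SD, n = 4), and shared 911 bp. Only 270 bp further, at chr2:32149807-32150982, thymus 3 covered 211 bp against 1109, 478, 423 and 832 bp, and its peak touched that of a single tumor. At chr2:32063882-32064518, held by thymus 5, the lengths were 537, 495, 415 and 409 bp in the tumors and 155 bp in thymus 5. Thymus was below all 4 tumors at each of the 3 regions, by the most at the first.

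At midn, whose human counterpart midnolin takes nuclear proteins to the proteasome, the region chr22:18700833-18702883 was held by thymus 5 with 142 bp, against 1601, 748, 1464 and 327 bp in the tumors. At sla2, whose mammalian counterpart is an adapter that damps T cell receptor signals, the region chr23:14805559-14805973 was held by thymus 3 with 129 bp, against 239, 319, 341 and 85 bp. Here thymus 3 exceeded tumor 4. Over the 11 regions of both lists the thymus was below all tumors at 9, and the median ratio was 0.326. Over all 507 regions it was below at 250, with a median ratio of 0.509. The study chose the tumor genes on these samples, and names were more frequent at regions without a thymus call. The same values were not taken over the 131 regions with a name, so the contrast cannot single out the listed genes. It is a description and was not tested. Other tumor-shared regions called in all 3 thymus samples lay within 12.5 kb of some listed regions. They numbered 3 at midn, 3 at il7r, 2 at the thymus 2 region of gata3 and 1 at each runx1 region. The remaining listed regions had none. Of the 7 genes of stress, p53 and differentiation, 3 were named in the rows and none was paired with a region. Such a gene was named at only 2 of the 11056 tumor-shared regions (0.0181%), so its absence here says nothing about the 507.

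**Figure D5:**
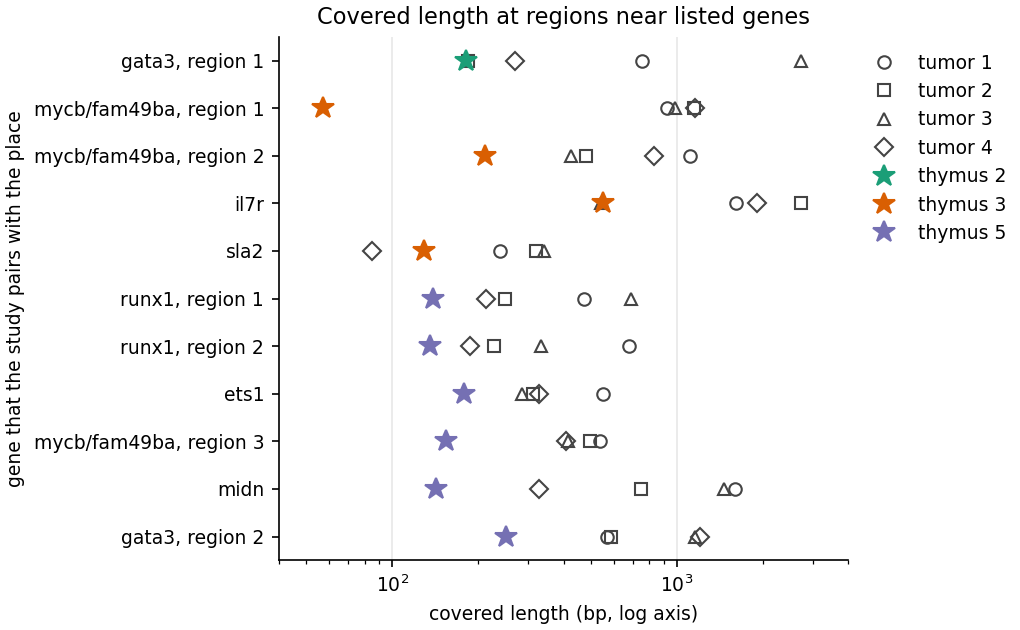
Covered length (x axis, bp, log scale) in each tumor (open symbols) and in the holding thymus sample (stars) at the 11 regions paired with listed genes (y axis). The star lies left of all 4 tumors at 9 regions, and among the tumors at il7r and sla2.

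Several loci carried regions held by different thymus samples. These were singled out after their values were seen, except where they belonged to the largest groups within 12.5 kb. In all, 15 gene names stood at 2 or more regions and 10 of them at regions of more than 1 thymus sample. Thymus 5 held 53.6% of the set and thymus 3 held 40.2%, and no expected number of such names was worked out from these shares. A stitched peak can span many regions, so a single locus can supply several of them. No count for other tumor-shared regions stands beside these counts or the count for cblb below, so they are descriptions only. At tox2, which encodes a DNA-binding protein of T cells, each thymus sample held a different region. Thymus 3 held chr6:58030892-58031777 with 276 bp, against 634, 338, 677 and 367 bp in the tumors. Thymus 2 held chr6:58031937-58034714, 159 bp further, with 132 bp against 506, 2737, 2003 and 1274 bp. Thymus 5 held chr6:58054838-58056439 with 162 bp against 361, 1602, 1312 and 136 bp. So all 3 samples had a peak at tox2, each in another region under the 1 bp rule. With merging up to 200 bp apart, the regions of thymus 3 and thymus 2 would join, hold both samples and leave the set.

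The name cblb, whose mammalian counterpart is a ubiquitin ligase that restrains T cell activation, stood at 7 regions, more than any other name, 5 of them held by thymus 3 and 2 by thymus 5. In a group of 3 on chromosome 10, thymus 5 held chr10:28598834-28599384 with 130 bp, against 158, 242, 523 and 76 bp in the tumors. Thymus 3 held chr10:28599477-28600140, 92 bp further, with 344 bp against 209, 291, 213 and 484 bp. Thymus 5 also held chr10:28607489-28608909 with 1044 bp against 1120, 1107, 827 and 870 bp, and a peak of thymus 3 lay 20 bp from it. At all 3 regions the holding thymus lay within the range of the tumors. With merging up to 200 bp apart, each of the 3 would take in peaks of both thymus 3 and thymus 5 and leave the set. Of the 7 regions, 2 lay on alternate sequences, which can hold copies of the place on the chromosome. At nipa1, which encodes a magnesium transporter, thymus 2 held chr6:37768433-37770907 with 183 bp against 415, 2475, 1687 and 1470 bp. Thymus 3 held chr6:37771902-37773214 with 149 bp against 405, 1312, 942 and 1045 bp.

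The other groups of 3 had fewer names. On chromosome 24 thymus 5 held all 3 regions between 39849204 and 39852201, with 353, 503 and 136 bp, and none had a name. There the middle region, chr24:39850890-39851647, had 310, 744, 445 and 539 bp in the tumors, so that thymus 5 with 503 bp lay among them. On chromosome 2 thymus 5 held chr2:37652717-37654337, paired with the insulin receptor gene insra, with 201 bp against 919, 1172, 799 and 1621 bp. Thymus 3 held chr2:37664610-37664974 with 192 bp against 193, 201, 163 and 334 bp. Thymus 5 held chr2:37670285-37671035 with 216 bp against 422, 426, 257 and 696 bp. The group thus alternated between samples. However, a peak of thymus 5 lay 176 bp from the second region and a peak of thymus 3 lay 154 bp from the third. The pair at chr9:21168388-21170230 was split between thymus 5 with 99 bp and thymus 2 with 50 bp, the minimum width of that list. It had no name, and its 2 regions lay 163 bp apart, so merging up to 200 bp apart would join them.

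The broadest regions on chromosomes 1 to 25 were chosen by the within-list rank of their widest peaks, 4 for each thymus sample. Since 4 of the 5 lists behind that rank are tumors, the choice itself favours long tumor peaks, and the lengths are given as a description. For thymus 2 they included chr19:25110142-25116629, paired with the phosphatase gene ptp4a3a, with 5153, 4571, 5495 and 607 bp in the tumors and 211 bp in thymus 2. Also among them were chr22:5817364-5819430, paired with cox14, with 1259, 2067, 1687 and 1116 bp against 258 bp, and chr20:17739716-17741430, paired with the N-cadherin gene cdh2, with 1317, 633, 1278 and 1519 bp against 76 bp. The nipa1 region above was the fourth. In all of these thymus 2 lay below every tumor.

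For thymus 3 the broadest on a chromosome was chr19:28564451-28568877, paired with mir7145 as a site, with 4394, 1676, 4398 and 2524 bp in the tumors and 552 bp in thymus 3. At chr11:8629624-8631506, paired with tbl1xr1a, a subunit of a corepressor complex, the tumors covered 1801, 1788, 1860 and 143 bp and thymus 3 202 bp, so that only tumor 4 was shorter. At chr2:25071938-25073747, paired with pccb as a site and with the cohesin gene stag1a as a stitched peak, they covered 1389, 1777, 902 and 1643 bp against 133 bp. At chr5:33958352-33960329, which had no name, they covered 513, 1481, 1613 and 1747 bp against 217 bp. Thymus 3 was below every tumor at 3 of these 4.

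For thymus 5 the tumor peaks again were long. At chr10:25856423-25860914, paired with the cation channel gene trpc4a, the tumors covered 4027, 3126, 4211 and 2536 bp and thymus 5 80 bp. At chr10:37514413-37519267, paired with msi2a, an RNA-binding protein gene, they covered 2481, 3705, 4855 and 3256 bp against 66 bp, the lowest ratio of the 507 regions (0.0185). At chr2:24059469-24061969, paired with the potassium channel gene kcnh2a, they covered 2148, 2209, 2094 and 1559 bp against 329 bp. By contrast, thymus 5 covered 1504 bp at chr2:31671322-31674439, paired with the cell cycle transcription factor gene e2f5, against 2343, 2455, 2478 and 2775 bp. Over the 12 broadest regions the ratio ran from 0.0185 to 0.599, and the thymus was below all tumors at 11. The rank behind the choice came mostly from tumor peaks and so favours low ratios. These values therefore say nothing about broad regions against the rest.

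At the other end stood the regions with the highest ratio on chromosomes, 2 for each thymus sample, none of which had a gene name. At chr13:10620042-10620708 thymus 5 covered 667 bp against 180, 172, 161 and 190 bp in the tumors, a ratio of 3.80. At chr1:58986165-58986917 it covered 679 bp against 207, 153, 235 and 132 bp. Thymus 3 covered 925 bp at chr16:51213299-51214223 against 611, 152, 455 and 175 bp, and 565 bp at chr4:760799-761363 against 252, 138, 308 and 221 bp. In these 4 the thymus peak was longer than in any tumor. The highest ratios of thymus 2 on chromosomes lay slightly over 1 and at 0.833, with 276 bp at chr8:52637430-52638112 against 363, 232, 313 and 97 bp and 253 bp at chr5:57437320-57437719 against 365, 308, 265 and 277 bp. The highest ratio of all 507, 4.98, also belonged to thymus 2 and lay on an alternate sequence, where it covered 792 bp against 146, 138, 191 and 161 bp. This region falls outside the naming rule and was added after its value was seen. No stretch at chr8:52637430-52638112 or at chr16:51213299-51214223 lay under peaks of all 4 tumors at once.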

How the data were processed

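The data were 7 H3K27ac ChIP-seq peak lists, of 4 tumors and 3 thymus samples. Input libraries had no lists here. Per the labels and methods, the authors used Bowtie2 to align single-end reads of 50 bp (GRCz11), samtools to take out duplicates and MACS2 (2.1.1.2016030) for broad peaks, with whole cell lysate as the background of each sample. The deposited lists hold peak coordinates. The deposited list of tumor 1 also holds a score, a fold enrichment, which is a ratio, and 2 columns of −log10 values for the p-value and the q-value, from the authors' peak caller. The score was not used. No list gives reads or depth, so no interval for read counting was possible. The minimum peak width differs between lists, so the least length that makes a call differs too.

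Coordinates are printed 1-based on GRCz11. Covered length is the sum of bases under peaks of a list in a region. The ratio divides the holding thymus by the mean of the tumors, with the median taken over regions. Neighbours were counted edge to edge within 12.5 kb on the same sequence. For each thymus sample the text names 4 regions on chromosomes whose widest peaks ranked highest within their lists (median percentile over the 5 holding lists), 2 with the highest ratio, the largest groups of neighbours, and regions paired with a listed gene. The members and lists were chosen with earlier results of these data known. Gene names came from part of the study's supplementary tables, by an overlap of 1 bp, without their fold changes or p-values. The merging and counting were tested on simulated lists, in which 400 of 400 planted regions had the planted calls. No genome sequence of this build was used here, so no sequence is printed. Scripts used Python 3.11.15, NumPy 2.4.6, pandas 2.3.3, SciPy 1.17.1 and matplotlib 3.10.9. Intervals are Wilson 95% intervals. Alternatives were chromosomes alone, a filter that dropped regions covered under 50% in any calling list, and merging up to 200 bp apart. Others were width and list length filters, wide stretches of tumor 2, other references and distances, and leaving out each sample.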

Additional observations from a re-analysis of the deposited data

Results flagged for a closer look

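Dixon's 95% limit for the gap between 1 tumor and the other 3 was applied to 43 named regions and 8 medians over sets. It was passed at 2 regions, no more than the 1 group in 20 that chance marks, so they are given as values only. The regions were chosen by the same calls. At chr11:8629624-8631506, paired with tbl1xr1a and held by thymus 3, tumor 4 covered 143 bp against 1801, 1788 and 1860 bp in tumors 1, 2 and 3. At chr18:48355417-48355967, paired with ets1 and held by thymus 5, tumor 1 covered 551 bp against 311, 285 and 329 bp.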

How the results depend on the processing

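No test between groups was run, so only values could move. Peaks at the wide stretches of tumor 2 touched none of the tumor-shared regions, so leaving them out could change nothing. On chromosomes 1 to 25 alone the count was 392 and with merging up to 200 bp apart 469, both within 1.5 times of 507. A filter on cover moved the counts most among the settings that kept all 7 lists at full length. It dropped every region in which any calling list covered under 50%, so it removed regions and did not turn weak calls into missing ones. With it 20 regions were left, and 1, 6 and 13 of them were held by thymus 2, 3 and 5. Their ratios were 0.833, 0.978 and 0.806, and 0% of them had a neighbour. Every calling list then covers at least 50% of the region, so ratios nearer to 1 are built into this filter. The value for thymus 2 is that of 1 region. With peaks of at least 128 bp the ratio of thymus 2 was 0.375. The shares below all tumors were then 78.6%, 38.3% and 41.4% for thymus 2, 3 and 5, against 80.6%, 46.6% and 47.8% as reported. With lists cut to their 19809 widest peaks the ratios were 0.383, 0.736 and 0.774, and 6.35% had a neighbour. The shares below all tumors were 76.2%, 32.0% and 32.2% with these shorter lists. For thymus 3 and 5 the share thus depended on the width limits of the lists. Against the narrowest tumor the ratios were 0.441, 1.05 and 1.08, so for thymus 3 and 5 they turned to above 1, and against the broadest tumor 0.126, 0.318 and 0.399. A neighbour was found for 4.54% within 5 kb and 16.6% within 50 kb. Leaving out a sample changed the rule itself. The count of all regions then ranged from 585 without tumor 3 to 2351 without thymus 5 (964 without tumor 4 and 2331 without thymus 3). Regions held by thymus 2 ranged from 35 to 138, by thymus 3 from 238 to 2213 and by thymus 5 from 306 to 2243. The ratios ranged from 0.18 to 0.334, 0.485 to 0.827 and 0.536 to 0.972, and the share with a neighbour from 9.42% to 17.2%. The share below all tumors ranged from 70.3% to 83.3% for thymus 2, from 30.8% (without thymus 5) to 60.9% (without tumor 4) for thymus 3 and from 25.4% (without thymus 3) to 61.1% (without tumor 4) for thymus 5. Since the main count is 507, each sample left out raised it. A thymus sample left out also took away the regions that it alone held. The cause of this rise and of the other shifts was not tested. No paired analysis was possible because the result comes from no test and the replicate numbers shared by tumors and thymus belong to different fish. Depth could not be read from the lists, so a region without a call is not shown to lack the mark.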
